A study of Mus musculus with 2 samples.

Results

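Ly49-expressing T cells are T cells that carry messenger RNA of Ly49 receptors, a family of surface lectins best known from natural killer (NK) cells. They were chosen from single-cell counts by measured values. A cell needed at least 2 unique molecular identifiers (UMIs, each standing for 1 captured RNA molecule) of Cd3d and Cd3e together, at least 1 of Trbc1 or Trbc2, and at least 1 of Klra1, Klra6 or Klra7. It also had no UMI of Cd79a, Klrg1 or Pdcd1 and fewer than 5 of Lyz2. Of 7400 cells that passed the filters, 202 met this rule, 114 in the flox library and 88 in the knockout library. T cells that passed every other condition and lacked the 3 Klra genes, called other T cells here, numbered 671 and 761, and NK cells numbered 197 and 261. NK cells were chosen by 0 UMIs of Cd3d, Cd3e and Cd3g, at least 2 of Ncr1 and Klrb1c together, and the same limits on Cd79a and Lyz2.

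The cells came from mouse retinal pigment epithelium (RPE) and choroid, the pigmented layer and the vascular layer behind the retina, sorted as live cells positive for CD45, a surface protein of white blood cells. All mice had received NaIO3 (sodium iodate, an oxidant toxic to the RPE) at 20 mg/kg by injection into the abdominal cavity. The flox group carried the genotype given as IL-17ra fl. The other group, titled KO and called knockout here, carried the genotype given as IL-17RA CKO. IL-17RA is a receptor chain for interleukin-17. Each group is 1 library, so no test between groups was possible and every interval below covers counting error only. The sources used here do not give the cells or exons in which the receptor was deleted, the age of the mice or how many animals went into a library.

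Ly49 receptors bind MHC class I molecules on other cells. Most members pass on an inhibitory signal through a tyrosine motif in their cytoplasmic tail, while others lack that motif and activate the cell through the adaptor protein that Tyrobp encodes. NK cells express several members each. Ly49 receptors also occur on small sets of T cells, among them memory-type CD8 T cells, CD8 T cells with regulatory function marked by the transcription factor Helios, and natural killer T (NKT) cells.

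The Ly49 genes described here lie on the minus strand of mouse chromosome 6 (build mm10), from Klra6 at chr6:130013033-130026954 to Klra1 at chr6:130363917-130386874. The first 36 coding bases of the members described below are shown from the GENCODE annotation because they separate the 2 kinds of receptor. Capitals mark codon 8, which is a tyrosine codon in the inhibitory members and a phenylalanine codon in the activating ones.
Klra7: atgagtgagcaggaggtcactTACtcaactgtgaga (Ly49G, inhibitory, chr6:130231582-130231617)
Klra1: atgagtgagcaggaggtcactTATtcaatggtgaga (Ly49A, inhibitory, chr6:130380627-130380662)
Klra6: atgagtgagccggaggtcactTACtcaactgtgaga (Ly49F, inhibitory, chr6:130025184-130025219)
Klra9: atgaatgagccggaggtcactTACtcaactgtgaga (Ly49I, inhibitory, chr6:130191266-130191301)
Klra3: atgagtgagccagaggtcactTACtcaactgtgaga (Ly49C, inhibitory, chr6:130335764-130335799)
Klra8: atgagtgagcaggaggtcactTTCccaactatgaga (Ly49H, activating, chr6:130128125-130128160)
Klra4: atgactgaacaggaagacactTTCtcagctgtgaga (Ly49D, activating, chr6:130065267-130065302)
Against Klra7, counted from 1 at the A of the start codon, both activating genes carry A23T within codon 8, while Klra6 differs at A11C alone. The last 300 bases of the longest transcripts, near the end that a 3′ kit reads, were 98.7% identical between Klra3 and Klra9, and between 70.9% and 98.7% over all pairs of 9 members. How reads shared by such copies were counted is not stated in these sources, so the split of counts between single Ly49 genes is uncertain.

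All 3 genes of the rule are inhibitory members, so each of the T cells had an inhibitory Ly49 UMI by choice. Klra7 was the gene most often seen among the 3 of the rule, with a UMI in 84.2% of the flox and 76.1% of the knockout Ly49-expressing T cells. Klra7 alone of the 3 was seen in 56 of 114 and 39 of 88 cells, and all of them in 11 and 9. Klra9 and Klra3, inhibitory genes that the rule did not use, were seen in 38.6% and 19.3% of the flox cells and in 45.5% and 29.5% of the knockout cells.

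The activating pair was rare by comparison. A UMI of Klra4 or Klra8 was found in 7 of 114 (6.14%, 95% Clopper-Pearson interval 2.50 to 12.2) and 9 of 88 (10.2%, 4.78 to 18.5) of the Ly49-expressing T cells. Among NK cells it was found in 137 of 197 (69.5%) and 193 of 261 (73.9%), and among NK cells chosen for Klra1, Klra6 or Klra7 in 90.8% and 88.7%. The last share compares cells chosen by the same 3 genes, and it still lay far above that of the T cells.

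The summed level of Klra1, Klra6 and Klra7, in counts scaled to the same total for each class (CPM, the counts per 1e6 UMIs), was 477 and 554 in the Ly49-expressing T cells and 520 and 625 in NK cells. The summed level of Klra4 and Klra8 was 20.0 and 121 CPM in the T cells against 1809 and 2123 CPM in NK cells. Of the 134 knockout UMIs of this pair in the T cells, 70 came from 1 cell. The level of the rule genes in the T cells is set by the choice of cells, while the rule did not use the activating pair.

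**Figure D1:**
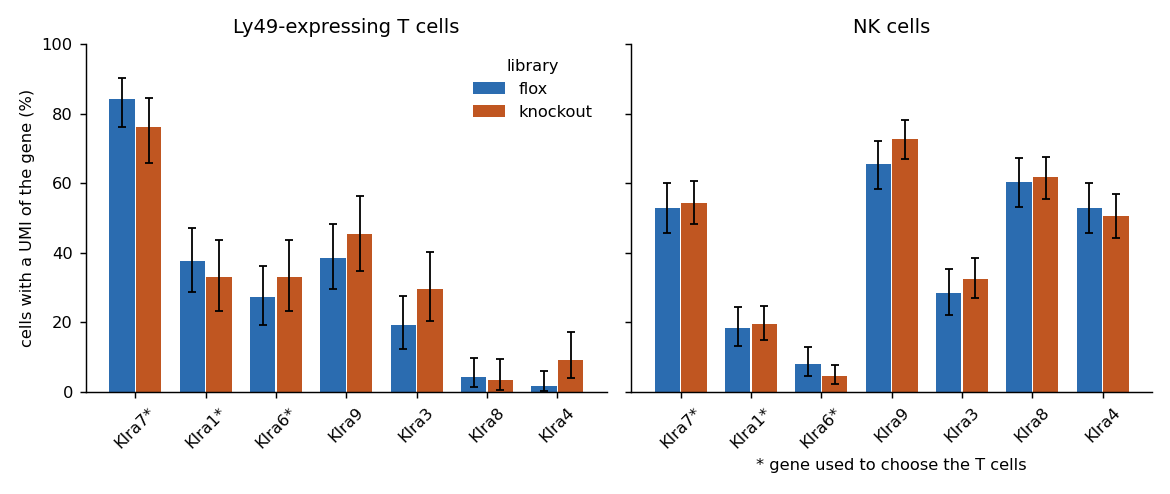
Bars give the percent of cells with at least 1 UMI of each Ly49 gene (vertical axis) in Ly49-expressing T cells (left) and NK cells (right), by library, with 95% Clopper-Pearson intervals; asterisks mark the genes that chose the T cells. Klra8 and Klra4 stand at 1.75% to 9.09% in the T cells and at 50.6% to 61.7% in NK cells.

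T cells also carried fewer kinds of Ly49 gene per cell than NK cells. At least 3 were seen in 36% (27.2 to 45.5) of the flox and 39.8% (29.5 to 50.8) of the knockout T cells, against 65.5% and 68.2% of NK cells. This lower number was seen although the T cells were deeper, with medians of 11095 and 11387.5 UMIs against 7287 and 6871 in NK cells.

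Cells of another type gave the background. A UMI of Klra1, Klra6 or Klra7 was found in 0.856% and 1.20% of B cells, which lack these receptors, at medians of 5993.5 and 6331 UMIs. The share of eligible T cells with such a UMI was 14.5% (12.1 to 17.2) in flox and 10.4% (8.40 to 12.6) in knockout. With every cell thinned to 2000 UMIs, leaving out 5 flox and 10 knockout T cells below that depth, the shares were 8.72% and 5.96%, against 0.350% and 0.556% in B cells.

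Both libraries mix female and male cells, told apart by Xist and Y-linked UMIs, and cells that could not be assigned are left out here. Ly49-expressing cells made up 16.2% (13.2 to 19.5) of female flox and 14.9% (11 to 19.4) of female knockout T cells. For male cells the shares were 17.0% (10.5 to 25.2) and 9.52% (6.61 to 13.2). The intervals of the libraries overlap in both sexes. All 4 estimates rest on 19 to 90 member cells, and whether sex plays a part was not tested.

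Most Ly49-expressing T cells had no detected co-receptor or were CD8 T cells. Neither CD4 nor CD8 RNA was seen in 64 flox and 44 knockout cells, CD8 RNA (Cd8a or Cd8b1) without Cd4 in 44 and 41, and Cd4 alone in 6 and 3. Put as shares of each kind of T cell, Ly49-expressing cells were 25.2% (20.0 to 31.0) and 19.6% (14.6 to 25.3) of those without a co-receptor. They were 13.2% and 9.60% of CD8 T cells, and 3.26% and 1.62% of CD4 T cells. Detection was not complete, as Cd8a was seen in 40 of 44 and 39 of 41 of the CD8 cells and Cd8b1 in 34 and 37, so how many cells without co-receptor RNA lack the proteins was not tested.

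The rule asked for only 1 Klra UMI, and 24 flox and 25 knockout cells had exactly that. Cells without a co-receptor made up 28.3% and 23.8% of the T cells with 0 Klra UMIs, 45.8% and 28.0% with 1 UMI, 57.4% and 46.7% with 2 to 5, and 60.5% and 69.7% with 6 or more. Klrb1c, the gene of the NK1.1 antigen, was seen in 8.49% and 6.04%, 25% and 24%, 46.8% and 36.7%, and 62.8% and 69.7% of the same 4 sets. These shares rose over the 4 sets in both libraries. Fcer1g rose over the 4 sets in both libraries too, from 9.24% to 76.7% in flox and from 7.88% to 66.7% in knockout. So did Klra9. Ikzf2 rose in knockout, at 16.3%, 24%, 43.3% and 66.7%. In flox Ikzf2 was seen in 32.3%, 29.2%, 48.9% and 67.4%, and the value at 1 UMI rests on 7 of 24 cells. Yes1 did not follow one order, at 21.3%, 58.3%, 57.4% and 48.8% in flox. Median depth was 8414 and 7878 UMIs with 0 Klra UMIs, 11174 and 10272 with 1, and 10637 and 12785 with 6 or more. The set with 0 Klra UMIs was thus the shallowest, and the part of depth in the first step was not tested. A further 2 flox and 10 knockout T cells with a Klra UMI were left out for Klrg1, and 12 and 8 for Pdcd1.

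The markers given for these cells held in part. Klra6, itself a gene of the rule, was seen in 31 of 114 flox and 29 of 88 knockout cells (27.2% and 33.0%). Cd3e was detected in 114 of 114 and 87 of 88 cells, as the rule nearly ensures. Ifngas1, a long noncoding RNA beside the interferon-gamma gene (chr10:118502035-118556525), was at 78.5 CPM in flox against 30.3 in other T cells, and at 52.2 against 19.8 in knockout. Its ratios were 2.59 (2.02 to 3.31) and 2.63 (1.90 to 3.61), and NK cells held 1 UMI of it in all. Yes1, a Src-family kinase (chr5:32611171-32687057), was at 151 against 89.8 CPM and 133 against 43.2 CPM, but in flox the interval of the ratio began at 1.43. Yes1 was seen in 54.4% and 52.3% of the Ly49-expressing T cells and in 4.11% and 4.15% of B cells.

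Against other T cells, Ly49-expressing T cells were higher in NK cell receptors and their adaptors, and lower in Gzmk, in Cd4 and in several genes of T cell receptor signalling. A gene was called when the 95% interval of its ratio lay beyond 1.5-fold, in the same direction in both libraries. A minimum of 50 UMIs over both classes applied, and the class with the higher level had to reach 50 CPM and show the gene in 10% of its cells. Of 3097 genes tested, 45 were called higher (1.45%) and 35 lower (1.13%). The balance was 33 higher and 43 lower without the highest cell per gene, and 11 and 26 in male cells alone. The rule genes were left out.

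The NK receptors led the higher genes. Fcer1g, the adaptor chain that couples several receptors to kinases, was at 341 CPM in the flox Ly49-expressing T cells against 36.5 in other T cells, and at 281 against 32.0 in knockout. Its ratios were 9.36 (7.96 to 11) and 8.76 (7.33 to 10.5). Klrb1c was at 115 against 22.7 CPM and 147 against 15.7 CPM, a ratio of 5.05 (3.99 to 6.39) and 9.34 (7.25 to 12.1). Klre1, a lectin-like receptor, was at 274 against 47.1 CPM and 237 against 55.2 CPM. Cd160, a receptor for the ligand HVEM, was at 88.8 against 20.1 CPM and 84.6 against 24.3 CPM.

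Among the 21 other NK receptors and adaptors listed, 12 were tested and 9 were called higher, against 1.45% of all genes tested. The other called members were Tyrobp, Klrc2, Klrk1, Klrc1 and Klrd1. Klrk1, which encodes the activating receptor NKG2D, was at 569 against 224 CPM and 598 against 187 CPM. Klrd1 and Klrc1 encode the chains of the inhibitory CD94/NKG2A receptor, and their ratios were 2.20 and 2.24, and 2.33 and 2.51. The median log2 ratio of the list was 1.55 in flox and 1.87 in knockout, beside -0.07 and -0.04 over all genes.

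Some of the cells carried many NK genes at once. The shares that follow are not matched for depth, with medians of 11095 and 11387.5 UMIs against 8414 and 7878 in other T cells. At least 5 of 6 NK markers (Ncr1, Klrb1c, Klre1, Tyrobp, Fcer1g, Eomes) were detected in 13 of 114 and 8 of 88 Ly49-expressing T cells, in 0.447% and 0.394% of other T cells and in 90.4% and 90.0% of NK cells, which were chosen by Ncr1 and Klrb1c. Without those 21 cells the Fcer1g ratio was 6.47 (5.41 to 7.74) and 5.41 (4.40 to 6.65) and the Klrb1c ratio 3.74 and 7.06. The Tyrobp ratio was 1.58 and 0.802. The cells left out were chosen by these same genes, so some fall was fixed by the choice. Scrublet marked 1 flox and 2 knockout members as doublets, and the part of T and NK cells captured together was not tested. Summed B cell, monocyte and photoreceptor markers were at 4.44 and 4.50, 4.44 and 3.60, and 9.62 and 8.10 CPM in the Ly49-expressing T cells, and RPE markers had 0 UMIs.

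Spry2, which was second by ratio, a feedback inhibitor of receptor kinase signalling, was at 141 against 18.3 CPM in flox and 102 against 13.7 CPM in knockout, a ratio of 7.72 (6.08 to 9.84) and 7.41 (5.57 to 9.88). Lyn, a Src-family kinase, had ratios of 3.37 and 3.62, Gas7 3.42 and 6.85, and Rbpms, an RNA-binding protein, 3.40 and 6. Il12rb2 and Il2rb, receptor chains for interleukin-12 and for interleukin-2 and interleukin-15, were 2.78 and 3.27 times and 1.87 and 2.48 times the level in other T cells. Ly6c2, a memory CD8 marker, was 2.55 and 3.04 times as high.

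**Figure D2:**
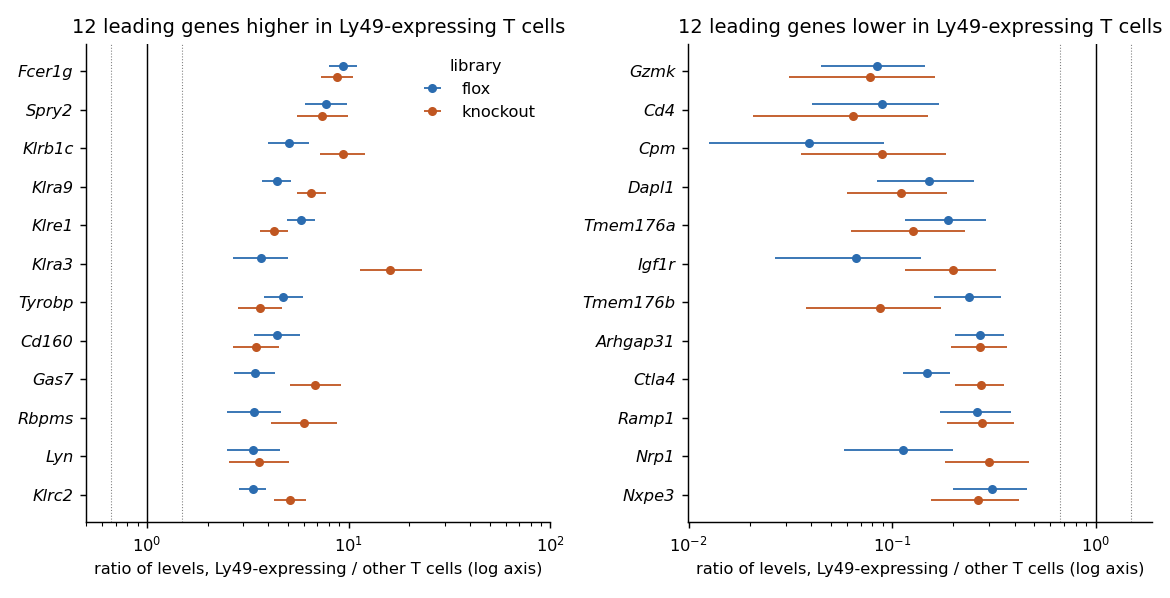
Ratio of the level in Ly49-expressing T cells to that in other T cells (horizontal log axis) for the 12 leading genes called higher (left) and lower (right), by library, with 95% conditional binomial intervals; dotted lines mark 1.5-fold either way. Fcer1g and Spry2 lead with ratios of 7.41 to 9.36, and Gzmk, Cd4 and Cpm lie below 0.1.

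Cytotoxic genes were mixed. Of 12 listed, 9 were tested, 3 were called higher (Ctla2a, Ctsw and Serpinb9) and 1 lower, beside 1.45% and 1.13% of all genes tested. The lower one, Gzmk, a granzyme of memory T cells, was at 9.62 CPM against 115 in flox and 6.30 against 80.9 in knockout. It was 11.9-fold and 12.8-fold lower, the furthest of the lower genes by the smaller of its 2 folds. Among CD8 cells alone, 0 of 10 tested cytotoxic genes were called higher and 1 lower, again Gzmk. There 0.643% and 0.440% of all genes tested were called. Gzmb went opposite ways in the libraries, 1.23 times the level of other T cells in flox and 0.438 times in knockout. Xcl1, a chemokine for cross-presenting dendritic cells, was at 358 against 119 CPM and 254 against 110 CPM.

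Genes of CD4 T cells and of receptor signalling were among the lower genes. Cd4 was 11.2-fold and 15.6-fold lower and Ctla4, an inhibitory receptor of regulatory T cells, 6.72-fold and 3.67-fold lower. Foxp3, the master regulator of regulatory T cells, had 0 UMIs in all 202 cells, which allows up to 2.22 and 2.70 CPM. Of 16 tested genes of the T cell receptor complex and co-receptors, 5 were called lower, against 1.13% of all genes tested: Cd4, Cd5, Cd8b1, Lat and Themis. Among CD8 cells alone, 2 of 15 tested were called lower, Cd8b1 and Lat, against 0.440% of all genes tested. Cd5 and Themis were not called there. Lat, the scaffold below the receptor, was at 158 against 363 CPM and 178 against 378 CPM. Of 11 tested naive T cell genes, only Dapl1 was called, at 11.1 against 73.4 CPM and 12.6 against 114 CPM. Tmem176a, Tmem176b, Igf1r, Cpm, Arhgap31, Ramp1, Nrp1 and Nxpe3 completed the 12 leading lower genes. Lef1, a transcription factor of naive T cells, is one that was not called, with 349 against 372 CPM and 411 against 471 CPM.

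Other T cells include CD4 T cells, so the CD8 cells were also compared alone, 44 and 41 Ly49-expressing against 289 and 386 others. Of 2955 genes tested, 19 were called higher (0.643%) and 13 lower (0.440%). Ikzf2, which encodes Helios, led. It was at 311 CPM against 40.4 in flox and 188 against 26.5 in knockout, with ratios of 7.70 (6.09 to 9.77) and 7.09 (5.36 to 9.40). Ikzf2 was seen in 21 of 44 and 13 of 41 Ly49-expressing CD8 cells and in 13.8% and 7.51% of the other CD8 cells. These shares are not matched for depth, with medians of 12981 and 13410 UMIs against 9133 and 8442.5. In the comparison with all other T cells Ikzf2 was not called, at ratios of 1.5 and 2.91.

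Fcer1g, Spry2, Klra3, Klre1, Gas7 and Il12rb2 were called higher in the CD8 cells as well. Of 10 tested members of the list of other NK receptors and adaptors, 4 were called higher there, beside 0.643% of all genes tested. Klrb1c, Tyrobp, Cd160, Klrc1, Klrd1, Lyn, Rbpms, Xcl1 and Ifngas1 were not called in the CD8 cells. Clnk, an adaptor related to SLP-76, had ratios of 5.55 and 7.35, and Pik3ap1, an adaptor of PI3-kinase, 2.44 and 3.21. Klra9 was under the minimum for testing in the CD8 cells, with ratios of 5.29 in flox and 0.858 (0.540 to 1.31) in knockout. The lower genes again began with Gzmk, at 9.50-fold and 18.5-fold. Itga4, an integrin chain that CD8 T cells raise after meeting foreign antigen, was at 156 against 469 CPM and 87.3 against 421 CPM. Slamf6 and Ctla4 were also lower.

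Against NK cells, the Ly49-expressing T cells were higher in T cell receptor and naive T cell genes and lower in NK effector genes. Of 3480 genes tested, 141 were called higher (4.05%) and 274 lower (7.87%). With the libraries scaled by the median ratio of abundant genes, which moved the log2 ratios by 0.26 and 0.28, the split was 208 higher and 182 lower. The counts include Cd3g, Ncr1 and Klrb1c, which the choice of NK cells fixes. Cells with Klrg1 or Pdcd1 UMIs were left out of the T cells but not of the NK cells. How far this unequal choice sets the calls was not tested. Cd3g was at 754 and 696 CPM in the T cells.

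Of 15 tested genes of the T cell receptor complex and co-receptors, 11 were called higher, beside 4.05% of all genes tested. These include Cd3g, Themis, Cd5, Cd6 and Trac. Trac was 15.0 and 15.8 times the NK level. The naive and memory genes Il7r, Lef1, Tcf7, S1pr1 and Ccr7 were called higher too, Il7r at 528 against 38.6 CPM and 788 against 64.9 CPM. Bcl11b, a transcription factor of T cell identity, was 23.4 and 24 times the NK level. Ikzf2 was 5.57 and 8.09 times and Yes1 9.85 and 7.78 times the NK level.

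Cdc20b and Khdc1a led the lower genes, with 0 UMIs in the T cells. NK effector genes were also low. Gzma, the most abundant granzyme of these NK cells, was at 31.8 and 197 CPM in the T cells, 407-fold and 65.1-fold below NK cells. Prf1, the pore-forming protein perforin, was at 63.7 against 1477 CPM and 64.8 against 1445 CPM. Serpinb9b had 0 UMIs in all T cells and was at least 95.8-fold and 66.1-fold lower. Itgam, S1pr5 and Irf8, genes of mature NK cells, were called lower, as were Eomes and Tbx21, the transcription factors of NK and memory CD8 cells. The 21 listed NK receptors and adaptors had 12 members called lower and 0 higher of 18 tested, Ncr1 and Klrb1c included. Of all genes tested, 7.87% were called lower and 4.05% higher.

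The Ly49-expressing T cells without a co-receptor differed from those with CD8. Of 2941 genes tested between them, 38 were called higher (1.29%) and 11 lower (0.374%), of which Cd8a and Cd8b1 define the split. Cd40lg, the CD40 ligand that helps B cells and dendritic cells, was at 140 against 6.44 CPM in flox and 155 against 4.94 CPM in knockout. It was seen in 23 of 64 and 21 of 44 cells without co-receptor, and in 2 of 44 and 1 of 41 CD8 cells. In other CD8 T cells it was at 12.8 and 21.3 CPM.

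Klra9, Klrb1c, Fcer1g, Tyrobp, Klrk1 and Cd226 were higher without a co-receptor. Klra9 was at 327 against 54.7 CPM and 589 against 41.2 CPM, and Klrb1c at 175 against 43.5 CPM and 282 against 47.8 CPM. Klrb1c was seen in 62.5% and 65.9% of these cells, against 25% and 24.4% of the CD8 cells. Capg, Slc16a10, Tmem64, Fgl2, Clnk and Lgals3 were also called higher. The tissue residency genes Cxcr6 and Itga1 were called higher, 2 of 5 tested, beside 1.29% of all genes tested.

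Zbtb16 encodes PLZF, the transcription factor that directs NKT development. It was seen in 23 of 64 (35.9%, 24.3 to 48.9) and 9 of 44 (20.5%, 9.80 to 35.3) cells without co-receptor and in 1 of 44 and 1 of 41 CD8 cells. Its ratios were 10.2 (4.12 to 32.7) and 6.43 (1.82 to 34.7), on too few UMIs for the call. Trav11, the receptor gene segment of invariant NKT cells, was seen in 3 of the 12 flox cells without co-receptor that had any Trav UMI and in 1 of 11 in knockout. Among other flox T cells without co-receptor it was seen in 7 of 44 (15.9%), and in knockout it was not among the segments most often seen. Most Ly49-expressing cells without co-receptor had no UMI of Zbtb16. Trdc, the constant gene of the delta chain, was seen in 10 of 64 and 2 of 44.

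The CD8 cells were higher in Themis, a protein of thymocyte selection, at 375 against 74.6 CPM and 407 against 57.2 CPM. Ccr7, the lymph node homing receptor, was at 83.7 against 25.9 CPM and 98.9 against 19.1 CPM. Fam169b, Gm44174, Bend4, Plek, Cdk6, Fam241a and Rgs10 were also called in this direction. Ikzf2 was seen in 57.8% and 59.1% of the cells without co-receptor and was not called between the groups.

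**Figure D3:**
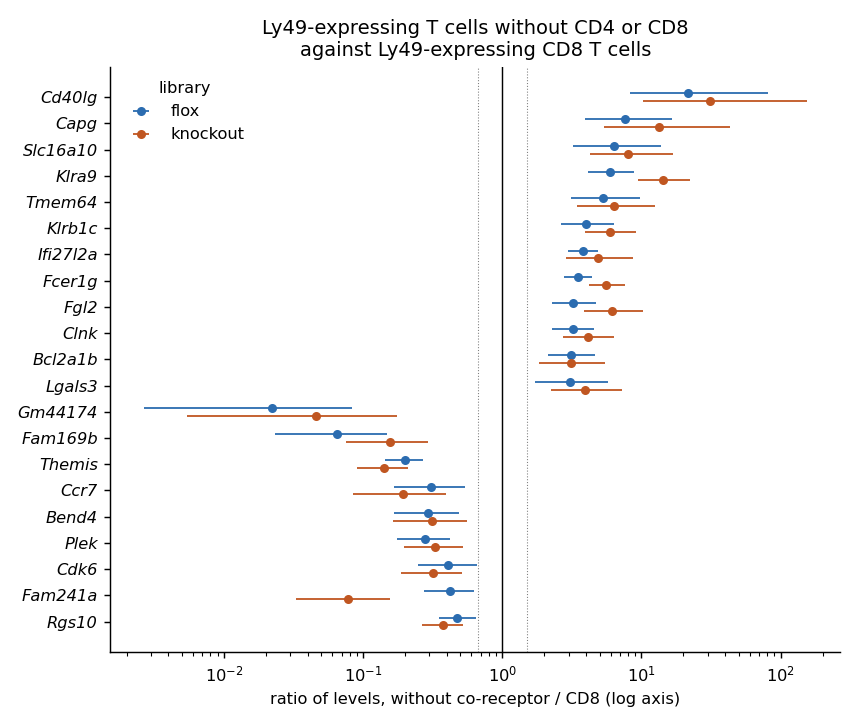
Ratio of the level in Ly49-expressing T cells without CD4 or CD8 RNA to that in Ly49-expressing CD8 T cells (horizontal log axis), by library, with 95% conditional binomial intervals; dotted lines mark 1.5-fold either way. The upper 12 genes were called higher without a co-receptor and the lower 9 in CD8 cells, with Cd8a and Cd8b1 left out.

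Receptor segments were seen in a minority of cells. Ly49-expressing T cells were deeper than other T cells, with medians of 11095 and 11387.5 UMIs against 8414 and 7878. The shares below are not matched for depth. A Trbv UMI was found in 46 of 114 and 32 of 88 Ly49-expressing T cells. Trbv12-2 was the segment most often seen, in 13 of the 46 (28.3%) and 8 of the 32 (25%). Among other T cells it was seen in 38 of 242 (15.7%) and 29 of 223 (13.0%). Trgv2, a gamma chain segment, was seen in 46 of 114 (40.4%) and 21 of 88 (23.9%), against 13.4% and 12.6% of other T cells. Among cells without a co-receptor the differences were smaller. There Trgv2 was seen in 28 of 64 and 13 of 44 Ly49-expressing cells and in 53 of 190 (27.9%) and 49 of 181 (27.1%) others. Trbv12-2 was seen in 8 of 25 and 4 of 16 against 12 of 52 (23.1%) and 10 of 50 (20%). Among CD8 cells Trgv2 was seen in 17 of 44 (38.6%) and 7 of 41 (17.1%), against 11.8% and 10.9% of other CD8 cells. Trbv12-2 was seen there in 5 of 19 and 4 of 16, against 17 of 106 (16.0%) and 13 of 117 (11.1%).

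The knockout was compared with flox within the Ly49-expressing T cells. The libraries were also counted with different versions of the counting software, which cannot be told apart from genotype. Il17ra, the targeted gene, was measured at 52.6 CPM in flox, with an interval of 41.1 to 66.3, and at 66.6 CPM in knockout, with 52.3 to 83.6. It was at 77.0 and 89.4 CPM in other T cells. Since the kit reads the 3′ end and the deleted exons are not given, this level does not check the deletion.

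Genes induced by type I interferon were lower in the knockout cells. Of 3214 genes tested, 42 were called lower (1.31%) and 5 higher (0.156%), and 15 of the 42 come from the list of type I interferon-induced genes, of which 16 were tested. Isg15, a ubiquitin-like modifier, stood at 237 CPM in the flox cells, with an interval of 212 to 264. The knockout level was 20.7 CPM, with an interval of 13.1 to 31.1, which is 11.4-fold lower. It was seen in 46 of 114 and 14 of 88 cells. Ifit1, which binds viral RNA, was at 94.8 and 9.90 CPM, and Ifit3 at 135 and 16.2 CPM. Bst2, a surface protein that tethers budding virus, was at 232 and 71.1 CPM, and Zbp1, a nucleic acid sensor, at 121 and 30.6 CPM.

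Each of the 27 list members with at least 20 UMIs had a ratio below 1, and the median log2 ratio was -1.74, beside 0.02 over all genes. The median was -1.91 in the CD8 cells and -1.54 in the cells without co-receptor, and -1.32 in female and -2.51 in male cells. In other T cells 29 of 29 had a ratio below 1 and the median was -1.29, and in NK cells it was 14 of 20 and -0.32. Calls made up 0.187% higher and 0.873% lower of the genes tested in other T cells, and 0.166% and 0.0552% in NK cells. Among the Ly49-expressing T cells, 10 of 14 tested list members were called lower in the CD8 cells, where 1.28% of genes were called lower and 0.321% higher. In the cells without co-receptor it was 6 of 13, beside 0.422% lower and 0.362% higher. Isg15 was 0.331 (0.299 to 0.367) times the flox level in other T cells and 0.955 (0.696 to 1.31) times in NK cells. Within the flox library Ly49-expressing T cells and NK cells also lay apart, with summed levels of the list of 2682 and 766 CPM. In knockout the sums were 847 and 650 CPM.

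**Figure D4:**
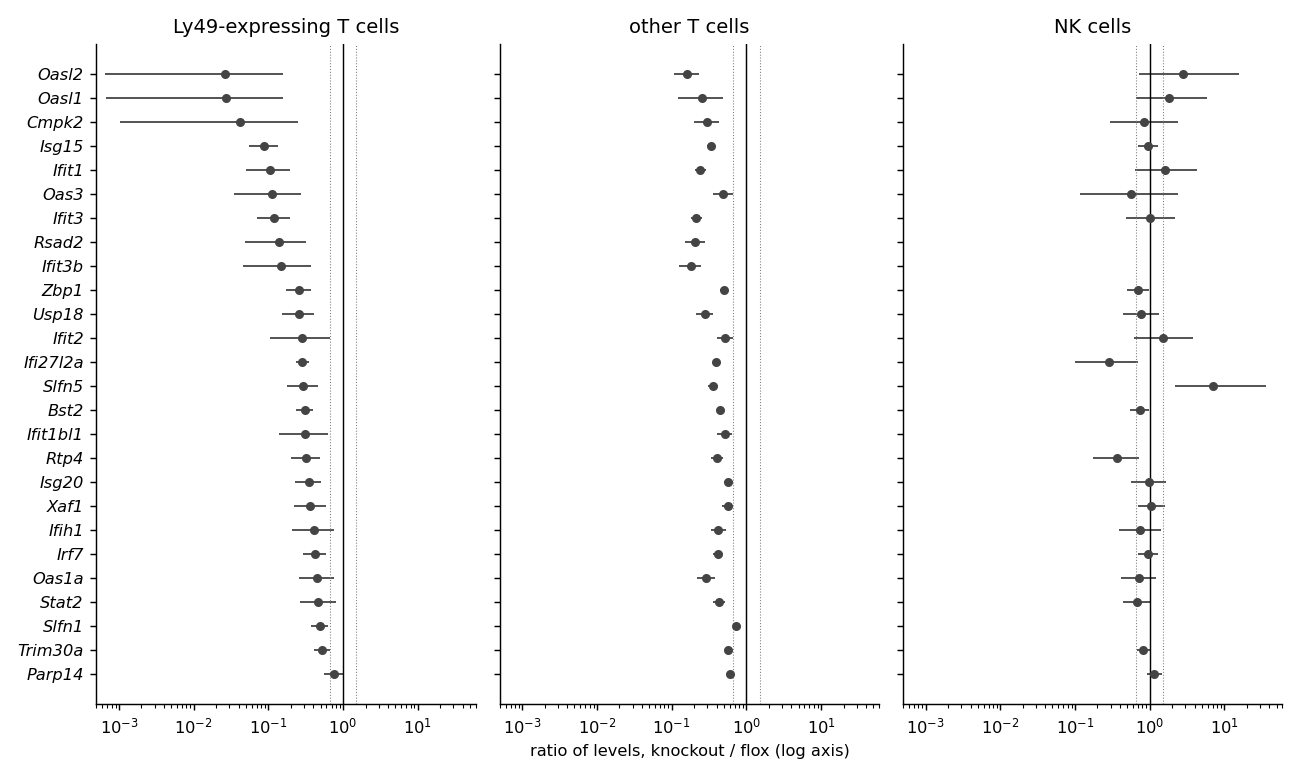
Ratio of the knockout to the flox level (horizontal log axis) for measured type I interferon-induced genes, 1 of the 27 left out, in Ly49-expressing T cells, other T cells and NK cells, with 95% conditional binomial intervals; dotted lines mark 1.5-fold either way, and a gene without UMIs in 1 library of a class has no point there. All points lie below 1 in both kinds of T cell, while the NK points lie on both sides.

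The flox cells were uneven. The summed level of the list per cell ran from 142 to 28663 CPM in flox, with a median of 1147, and from 0 to 6075 CPM in knockout, with a median of 659. The 11 highest of the 114 flox cells held 44.9% of the list's UMIs. The medians were 1067 CPM in 90 female and 2371 CPM in 19 male flox cells, and 642 and 673 CPM in 45 female and 32 male knockout cells. The ranges of the libraries overlapped widely, and the highest values were in flox.

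**Figure D5:**
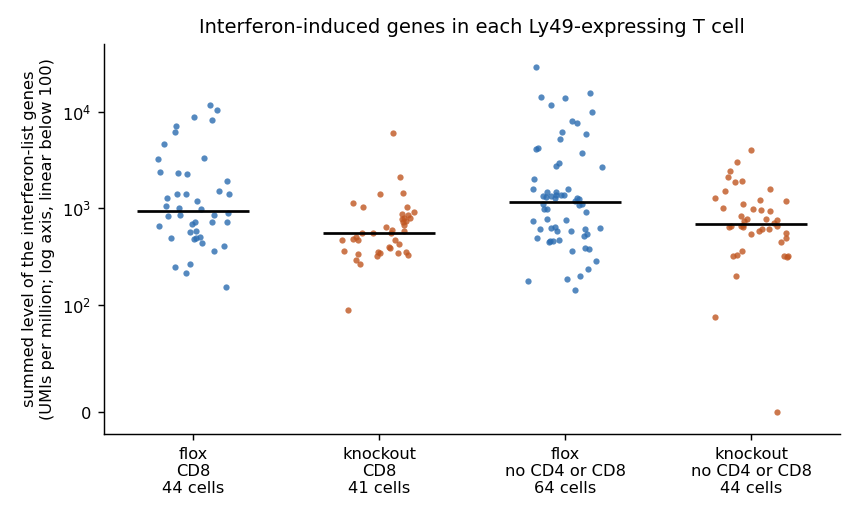
Each point is 1 Ly49-expressing T cell, placed by its summed level of type I interferon-induced genes in CPM (vertical axis, logarithmic and linear below 100) and grouped by library and co-receptor; bars mark medians and the horizontal spread within a group is random. The highest flox cells exceed the highest knockout cell, which is at 6075.

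Genes of interferon-gamma moved less. Of 17 listed and measured, 16 had a ratio below 1 and the median log2 ratio was -0.51. Of 10 tested, Gbp6, Ifi47 and Igtp were called lower, beside 1.31% of all genes tested. Cxcl10, a chemokine of T cell recruitment, had 87 UMIs in 14 flox cells, 41.4% of them in 1 cell, and 1 UMI in knockout. Gzmb was at 111 and 44.1 CPM.

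Single cells set some of the other calls. Hist1h2ap and Top2a, genes of dividing cells, were at 155 and 12.6 CPM and at 56.3 and 10.8 CPM, but 1 flox cell held 91.9% and 81.6% of their UMIs. Without the highest cell of each library the ratios were 0.715 and 0.695. Trdc was at 65.1 and 15.3 CPM, in 12 and 4 cells.

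The 5 higher genes were Gzma, Klri2, Ccr2, Apol7e and Cd6. Gzma was at 31.8 CPM in flox, where 1 of its 4 positive cells held 88.4% of the UMIs, and at 197 CPM in 9 knockout cells. Its ratio was 6.19 (4.45 to 8.80), and 34.8 without the highest cell of each library. Klri2, an NK lectin receptor, was at 32.6 and 82.8 CPM, and its ratio of 2.54 was 1.52 without the cells rich in NK markers. Gzma was also seen in 1.37% and 3.17% of B cells, and in other T cells it rose from 54.3 to 261 CPM. Ccr2, the chemokine receptor of inflammatory homing, was at 34.1 and 84.6 CPM, a ratio of 2.48 (1.73 to 3.62), and at 123 and 94.1 CPM in other T cells. Cd6, a costimulatory receptor, was at 62.2 and 126 CPM.

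Ikzf2 and Yes1 were closer between the libraries in the Ly49-expressing T cells than in other T cells, which include CD4 T cells. For Ikzf2 this was not seen among CD8 cells alone, where its level was lower in knockout in both Ly49-expressing and other cells. Ikzf2 was at 324 and 252 CPM in the Ly49-expressing T cells, a ratio of 0.777 (0.667 to 0.905), and at 216 and 86.7 CPM in other T cells, a ratio of 0.401 (0.363 to 0.443). Yes1 was at 151 and 133 CPM, and at 89.8 and 43.2 CPM in other T cells. Both genes were called lower in other T cells, where 28 of 3207 genes were (0.873%), and neither was called in the Ly49-expressing T cells. The intervals of the 2 ratios do not overlap for either gene, and the difference between them was not tested. In female cells alone the Ikzf2 ratio was 1.09, and thinned to 2000 UMIs the Yes1 ratio was 1.003.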

How the data were processed

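The submitters' processing notes name Cell Ranger and the mm10 build. Cell Ranger versions differ per the file headers, with 4 for flox and 7.0.1 for knockout. Differences between the libraries by version and by genotype cannot be told apart. The deposited values are UMI counts per gene and barcode, 38623933 in flox and 35944330 in knockout, and the libraries share 4 barcodes of at least 1000 UMIs. The labels name a v2 kit, yet the flox matrix lists 1002803 barcodes.

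Cells with at least 1000 UMIs, 300 genes and less than 10% mitochondrial UMIs were kept, 3418 and 3982. Scrublet (scanpy 1.11.5) marked 17 (0.497%) and 56 (1.41%) as doublets, which were kept. UMIs were summed per class and library, with exact Poisson, conditional binomial and Clopper-Pearson intervals at 95% (scipy 1.17.1). No p-value is given, since each group is 1 library. List medians use members with at least 20 UMIs, with 0.5 UMIs added. Mitochondrial, ribosomal, haemoglobin and Y-linked genes, Xist and the rule genes were left out of the calls.

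Up to 12 genes per direction and comparison were named by ratio, and up to 4 members per list by UMIs; others named here were chosen after their values were seen. The members, lists and markers were chosen with earlier results of these data known. Mx1, Klra13-ps and Klra14-ps are list names that matched no gene name in the files. One gene of the interferon list counts in the list's totals and is not reported here by itself.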

Additional observations from a re-analysis of the deposited data

How the results depend on the processing

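No paired analysis was possible because each group is 1 library and the labels carry no replicate numbers. Leaving out the highest cell per gene, leaving out cells with 5 or 6 NK markers and using cells without co-receptor only were chosen after seeing the data. Per-cell means of CPM give no counts of calls. Of the summary values under alternatives, 78 stayed close to the reported ones and 25 moved. Some alternatives could change little, since 0 members had 1000 to 2000 UMIs in either library. A minimum of 20 UMIs per gene gave the same counts of calls. Single-gene ratios stayed close in 584 and moved in 129 cases against other T cells, and in 224 and 55 between libraries, and 13 changed direction. The causes were not tested.

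The share of eligible T cells was 11.5% and 7.42% with at least 2 Klra UMIs, 8.72% and 5.96% when thinned to 2000 UMIs, and 14.9% in female knockout cells. Against other T cells, 45 genes were higher and 35 lower, which became 20 and 13 when thinned and 19 and 13 in CD8 cells, with 11 higher in male cells. Without the highest cell per gene the split was 33 higher and 43 lower. Against NK cells, 141 higher and 274 lower became 35 and 92 when thinned, 39 and 88 in male cells, and 208 and 182 scaled by the median ratio. Between libraries, the 5 higher genes became 8 with at least 2 Klra UMIs, 3 when thinned, 10 in CD8 cells, 11 in male cells, 2 without the cells rich in NK markers and 12 in cells without co-receptor. The 42 lower genes became 3 when thinned, 16 in female cells and 14 in cells without co-receptor. The interferon median was -2.51 in male cells.

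Knockout to flox ratios that changed direction were Top2a at 1.77 with at least 2 Klra UMIs and 1.19 in cells without co-receptor, Yes1 at 1.003 thinned, 1.03 in CD8 and 1.17 in male cells, Trdc at 1.28 in CD8 cells, and Hist1h2ap at 1.27 and Ikzf2 at 1.09 in female cells. Against other T cells they were Klra9 at 0.858 in knockout CD8 cells, Klra3 at 0.870, Dapl1 at 1.06 and Ramp1 at 1.02 in male flox cells, and Tyrobp at 0.802 in knockout without the cells rich in NK markers. Calls cover genes of 50 CPM or more, a minimum that was set as a parameter.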
